A study of Mus musculus with 14 samples.

Results

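Macrophages and other leukocytes carry a set of genes that cells of the cochlear sensory epithelium are not known for, and 34 such genes were followed through RNA-seq libraries of sorted cochlear supporting cells (SCs). The 34 were chosen by name from 35976 counted genes, some of them because they were higher with compound E at P6, so their values in the P6 contrast are described here and not tested. Which of the 34 were taken for that reason is not recorded. All 34 were found in the count tables of both ages, and they were grouped by role into 5 leukocyte lineage genes, 3 growth factor and chemokine receptors, 6 cytoplasmic and lysosomal genes, 6 Fc receptors and adaptors, 3 C1q chains, 5 scavenger and pattern receptors, 2 integrin chains and 4 genes of MHC class II.

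Cochlear explants of Lfng-EGFP mice, aged P0 or P6 by the sample labels, were kept for 24 hours with 2 µM compound E, a γ-secretase inhibitor that blocks Notch cleavage, or with the same volume of its solvent DMSO. All groups carried the Lfng-EGFP reporter, a transgene in which regulatory sequence of Lfng drives EGFP, and EGFP+ cells were sorted by flow cytometry from tissue pooled from 4 organs per tube. The P0 groups held 4 libraries per treatment, from batches 1 to 3, and the P6 groups 3 per treatment, from batches 4 to 6, with both treatments in every batch. Each library was counted at 19415066 to 44430063 reads on genes, and levels are given as RPM, the reads of a gene scaled to the library's total on genes, so that 3 counts correspond to 0.0675 to 0.155 RPM depending on the library. The labelled SCs were checked with 9 SC genes (Lfng the highest), which summed to 4495 to 9913 RPM at P0 and to 1663 to 5942 RPM at P6.

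Macrophages are tissue phagocytes that arise from embryonic precursors and from blood monocytes, and they live in the lateral wall, the spiral ganglion and below the sensory epithelium of the cochlea. They depend on the receptor Csf1r and the transcription factor Spi1 (PU.1), recognise targets through Fc, complement and scavenger receptors, and digest them with lysosomal enzymes. Ptprc (CD45) is shared by nearly all leukocytes, whereas SCs take up debris without being leukocytes. In libraries of sorted populations, fewer cells of a type and less RNA per cell cannot be told apart.

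Batch 6 stood apart for these genes with either treatment. Its libraries entered the P6 contrast that the choice of members had used, so the counts that follow are descriptions. Both libraries of batch 6, compound E replicate 3 and DMSO replicate 3 of P6, lay above the other 4 P6 libraries for 26 of the 34 genes. Among genes tested at P6 that order was found for 20 of the 27 members and for 22% of all 15322. The exceptions were Ccr2, Fcgr1, C1qa, C1qc, Cd163, Cd14, H2-Ab1 and H2-Eb1, and for 21 of the 34 both libraries also lay above all 8 P0 libraries. Among genes tested at P6 this wider order was found for 16 of the 27 members and for 8.8% of all. The median log2 ratio of the batch 6 mean to the mean of the other 4 P6 libraries was 2.52 over the 34 genes and 0.08 over all genes tested. The P6 contrast is therefore given with and without batch 6.

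Summed over 33 of the genes, with H2-Ab1 left out because it alone exceeded the sum of the others in most libraries, the level was 607 RPM in P6 compound E replicate 3 and 222 RPM in P6 DMSO replicate 3. These are 16667 and 9153 counts, or 0.0607% (95% Wilson interval 0.0598 to 0.0616%) and 0.0222% (0.0218 to 0.0227%) of the counts on genes, with counting error only in the intervals. In the other P6 libraries the sum was 60.0 and 54.2 RPM for compound E replicates 1 and 2 and 51.3 and 16.7 RPM for DMSO replicates 1 and 2. Batch 6 therefore held 82.0% of the sum over the 6 P6 libraries. At P0 the sum was 70.4, 43.6, 42.6 and 29.0 RPM in compound E replicates 1 to 4 and 44.8, 15.5, 66.7 and 43.2 RPM in DMSO replicates 1 to 4. The P0 groups overlapped, and outside batch 6 the P6 libraries fell in the same range as those of P0.

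**Figure D1:**
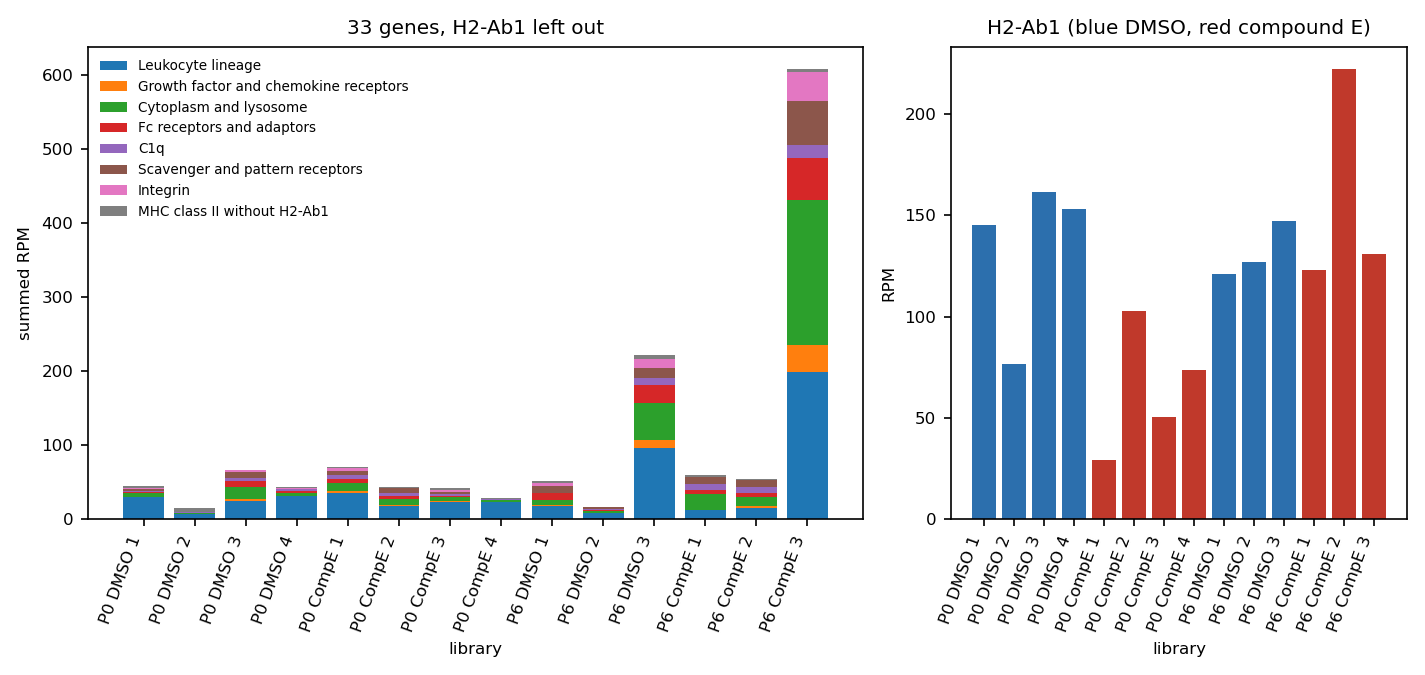
Left, summed RPM of 33 genes (H2-Ab1 left out) in each of the 14 libraries, stacked by role; right, RPM of H2-Ab1 in the same libraries, DMSO in blue and compound E in red. P6 compound E replicate 3 reached 607 RPM and P6 DMSO replicate 3 reached 222 RPM, whereas the other 12 libraries lay between 15.5 and 70.4 RPM, and H2-Ab1 did not follow that pattern.

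Many members were at or near the limit of detection outside batch 6. No member was at 0 counts in either library of batch 6, but 17 were at 0 in P6 DMSO replicate 1, 14 in P6 DMSO replicate 2 and 17 in P0 DMSO replicate 2. Only 5 members, Laptm5, Lcp1, Cd68, Cd74 and H2-Ab1, had at least 10 counts in every library. A filter on low counts kept 18 of the 34 for the P0 fit and 27 for the P6 fit. P6 compound E replicate 3 was the highest of the 6 P6 libraries for 29 of the 34 genes and the highest of all 14 libraries for 28. The choice of members had used this library, and the share of all genes with either order was not counted.

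**Figure D2:**
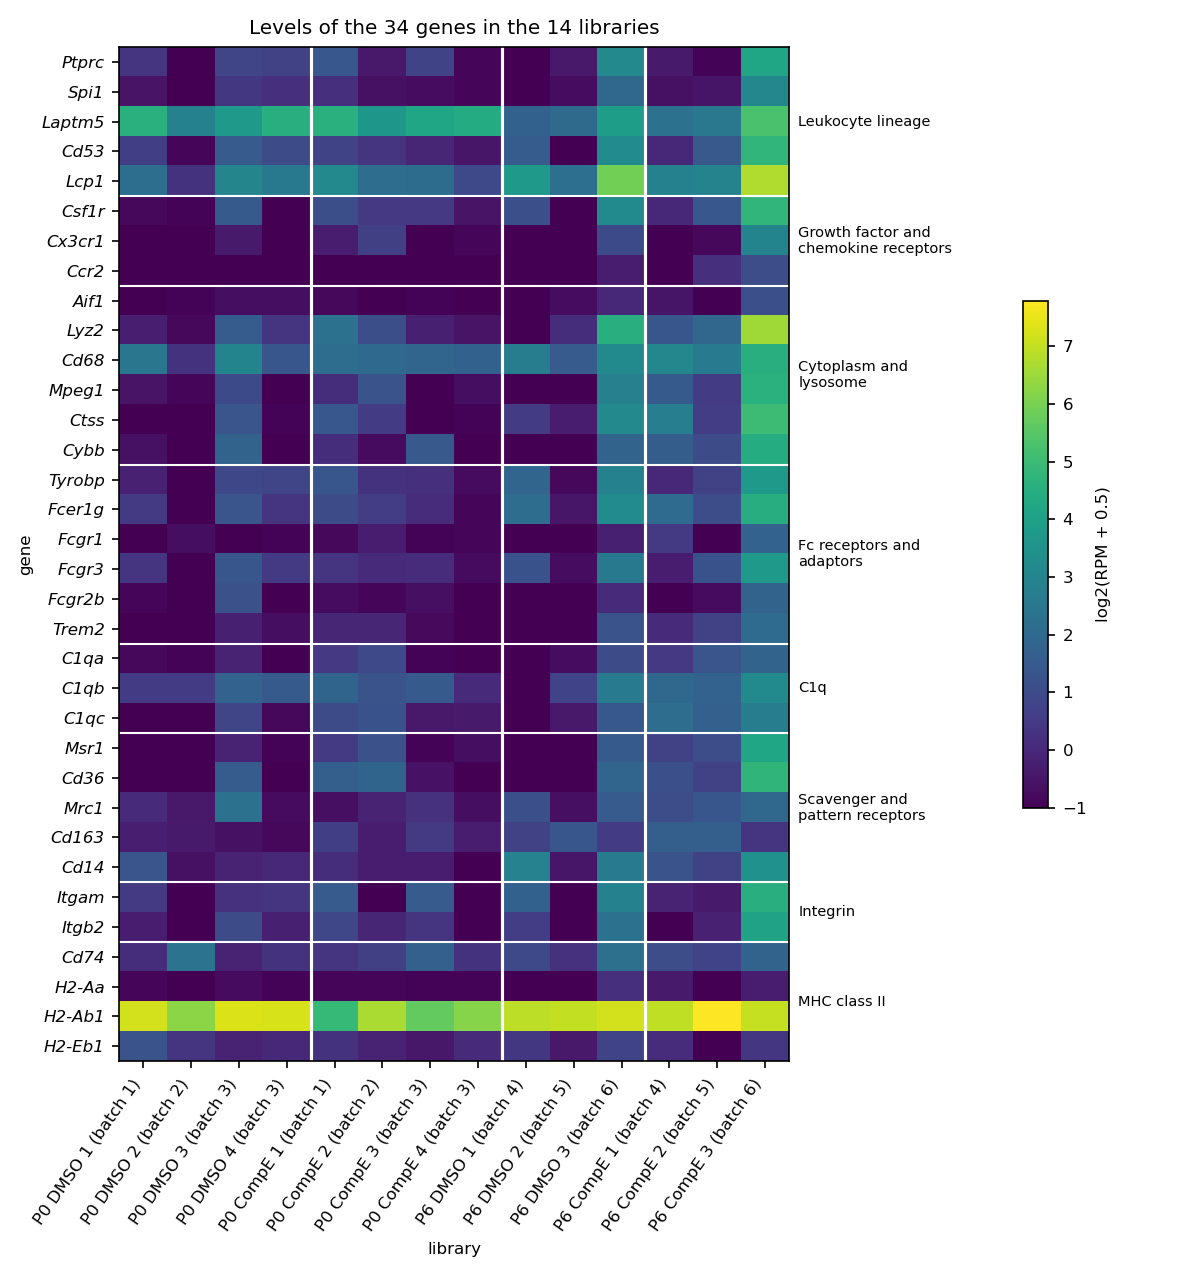
Level of each of the 34 genes, as log2(RPM + 0.5) by colour, in the 14 libraries ordered by age and treatment, with the batch of each library in parentheses and the roles at the right. The columns of batch 6 are the brightest for most rows, H2-Ab1 is bright in all 14 columns, and Laptm5 is bright at P0.

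Of the leukocyte lineage genes, Lcp1, which encodes the actin-bundling protein L-plastin, had the highest mean RPM. Lcp1 (ENSMUSG00000021998.16, GRCm38 chromosome 14 from 75131101 to 75230842, plus strand) measured 108 RPM in P6 compound E replicate 3 and 60.6 RPM in DMSO replicate 3. In the other P6 libraries it measured 6.80 and 7.11 RPM with compound E and 12.6 and 4.11 RPM with DMSO. At P0 the values were 8.42, 3.97, 3.85 and 1.42 RPM with compound E and 4.05, 0.726, 7.43 and 5.42 RPM with DMSO. Lcp1 was thus high in both libraries of batch 6, while within P0 and within the rest of P6 the treatments overlapped. Annotated genes on the opposite strand overlap Lcp1, Csf1r, Cx3cr1 and Fcgr2b, and genes on the same strand overlap Itgam and Cd74. Since the use of strand in counting is not given in the sources used here, reads of these genes and their partners cannot be told apart.

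Ptprc, the leukocyte phosphatase CD45, was named after its values were seen because it defines the lineage. It measured 17.8 and 8.23 RPM in compound E and DMSO of batch 6 and at most 0.278 RPM in the other 4 P6 libraries. At P0 Ptprc ranged from 0.0631 to 2.09 RPM with compound E and from 0 to 1.30 RPM with DMSO. Because only the libraries of batch 6 reached the count minimum at P6, Ptprc was among the 7 members not tested there. Spi1, which encodes PU.1, measured 7.90 and 3.47 RPM in batch 6 and at most 0.209 RPM in the rest of P6, and Cd53, a leukocyte tetraspanin, measured 27.3 and 9.03 RPM against at most 2.46 RPM.

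Laptm5, a lysosomal membrane protein of hematopoietic cells (chromosome 4 from 130913125 to 130936141, plus strand), differed from the other lineage genes at P0, and it too was singled out after its values were seen. It measured 23.3, 12.2, 17.4 and 20.8 RPM with compound E and 23.2, 6.71, 12.7 and 23.0 RPM with DMSO. At P6 it measured 4.34, 5.30 and 37.9 RPM with compound E and 2.84, 3.60 and 14.7 RPM with DMSO. Outside batch 6 every P6 library was below every P0 library, and in batch 6 the values returned to the P0 range or above it. Per kilobase of exon the P0 mean of Laptm5 was 4.86 RPKM with compound E and 4.33 RPKM with DMSO, and that of Ptprc was 0.0501 and 0.0434 RPKM. Laptm5 made up 19.1 to 71.7% of the 33-gene sum in the P0 libraries and 5.53 to 21.5% in the P6 libraries.

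Among the receptors, Csf1r, the receptor for the macrophage growth factors Csf1 and Il34, was the highest in mean RPM. It measured 27.5 RPM in compound E and 8.81 RPM in DMSO of batch 6, and 0.477 and 2.09 RPM with compound E and 1.71 and 0 RPM with DMSO in batches 4 and 5. At P0 Csf1r measured 1.67, 0.876, 0.875 and 0.189 RPM with compound E. In the DMSO libraries of P0 it measured 0.0757, 0.0250, 2.29 and 0 RPM. The level was thus uneven among P0 DMSO libraries, with nearly all of it in replicate 3. Cx3cr1, the fractalkine receptor of resident macrophages and microglia, measured 7.25 and 1.46 RPM in batch 6 and at most 1.08 RPM elsewhere. Ccr2, which guides monocytes from blood into tissue, had no counts in any P0 library and measured 1.60 and 0.315 RPM in batch 6. It also measured 0.627 RPM in P6 compound E replicate 2, above the DMSO library of batch 6.

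Lyz2, the lysozyme gene of myeloid cells (ENSMUSG00000069516.8, chromosome 10 from 117277331 to 117282321, minus strand), led the cytoplasmic and lysosomal genes. Its level was 92.9 RPM in compound E and 23.1 RPM in DMSO of batch 6, against 2.07 and 3.24 RPM with compound E and 0 and 0.612 RPM with DMSO in batches 4 and 5. At P0 it measured 4.39, 1.65, 0.350 and 0.189 RPM with compound E and 0.341, 0.0751, 2.44 and 0.756 RPM with DMSO. Lyz2 was higher with compound E in all 3 P6 pairs, a pair being the compound E and DMSO libraries of 1 replicate number, but in only 2 of the 4 P0 pairs. Lyz2 shares nearly identical sequence with Lyz1, so its counts depend on how the counting treated such reads.

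Of the other genes of this role, Cd68, a lysosomal glycoprotein of phagocytes, was detected in all 14 libraries, at 0.726 to 7.37 RPM at P0 and 2.38 to 23.2 RPM at P6. Ctss, the protease cathepsin S, measured 32.2 and 8.23 RPM in batch 6 and at most 6.32 RPM in any other library. Cybb, the catalytic chain of the phagocyte oxidase, measured 21.1 and 3.01 RPM, and the pore-forming protein gene Mpeg1 measured 23.9 and 6.62 RPM. Aif1, which encodes the macrophage marker Iba1, stayed low throughout, with 1.71 and 0.485 RPM in batch 6 and at most 0.199 RPM elsewhere. All 6 genes of this role were higher in both libraries of batch 6 than in the other P6 libraries.

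Fcer1g, the signaling chain shared by Fc receptors (ENSMUSG00000058715.11, chromosome 1 from 171229572 to 171234365, minus strand), was the highest of its role. It measured 21.9 and 8.88 RPM in compound E and DMSO of batch 6, 3.70 and 1.64 RPM in the other P6 compound E libraries and 3.92 and 0.216 RPM in the other P6 DMSO libraries. At P0 it measured 1.51, 1.03, 0.583 and 0.0631 RPM with compound E and 0.908, 0, 1.97 and 0.756 RPM with DMSO. The treatments overlapped at both ages. Tyrobp, the adaptor DAP12 through which Trem2 signals, measured 13.1 and 6.79 RPM in batch 6. Trem2, a lipid-sensing receptor, measured 3.72 and 1.89 RPM there, and it was at 0 in both DMSO libraries of batches 4 and 5 but at 0.557 and 1.1496 RPM in the compound E libraries of the same batches. The Fcγ receptor genes Fcgr1, Fcgr3 and Fcgr2b measured 2.91, 12.8 and 3.02 RPM in compound E of batch 6 and 0.364, 5.44 and 0.558 RPM in its DMSO library. Fcgr1 also measured 0.915 RPM in P6 compound E replicate 1, above that DMSO library. Fcgr2b and Fcgr3 are close in sequence, so reads may be divided between them uncertainly.

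The C1q chains, which together form the recognition unit of the classical complement pathway, followed another pattern. C1qb (ENSMUSG00000036905.8, chromosome 4 from 136880129 to 136886187, minus strand) measured 3.42, 2.89 and 8.45 RPM with compound E and 0, 1.19 and 5.80 RPM with DMSO at P6. At P0 it measured 3.04, 1.91, 2.30 and 0.568 RPM with compound E and 0.946, 0.926, 2.89 and 2.30 RPM with DMSO. The log2 ratio of batch 6 to the rest of P6 was 1.68 for C1qb, below the median of the members. C1qc measured 3.94, 2.75 and 6.05 RPM in the P6 compound E libraries and 0, 0.252 and 2.18 RPM in the P6 DMSO libraries. Its treatments did not overlap there, in a contrast that the choice of members had used. How many of all genes show that order was not counted. C1qa, C1qb and C1qc lie side by side on chromosome 4, and all 3 were higher with compound E in each of the 3 P6 pairs. At P0 they were higher with compound E in pairs 1 and 2, all 3 lower in pair 3, and higher for 1 of 3 in pair 4.

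The make-up of the sum differed between batches in the share of C1q. The 3 chains made up 13.7 and 14.1% of the 33-gene sum in P6 compound E replicates 1 and 2 but 2.89% in replicate 3. With DMSO the shares were 0 and 9.25% in replicates 1 and 2 and 4.27% in replicate 3. Lyz2 went the other way, with 3.45 and 5.98% in compound E replicates 1 and 2 and 15.3% in replicate 3. The level in batch 6 was therefore not a uniform multiple of the level in batches 4 and 5.

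PU.1 binds purine-rich boxes in many myeloid promoters, so the upstream 250 bases of RefSeq promoters (GRCm38.p6) were searched for GAGGAAGT on both strands. A window was found for 25 of the 34 members. The letters occurred in 1 of 28 member windows, that of C1qc, and in 2.44% of all 32851 windows. The C1qc window is shown as the only member window with a match, from chr4:136893066-136893164 on the minus strand. It is cut to 99 bases that GENCODE places outside its exons. The match is in capitals on the opposite strand, 195 bases before the RefSeq start site.
C1qc: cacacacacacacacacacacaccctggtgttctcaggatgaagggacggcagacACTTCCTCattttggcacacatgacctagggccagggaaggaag
A match is a description of the letters and not of binding.

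Cd36, a receptor for lipoproteins and apoptotic cells (ENSMUSG00000002944.15, chromosome 5 from 17781690 to 17888801, minus strand), was the highest of the scavenger and pattern receptors. It measured 1.71, 1.18 and 26.2 RPM with compound E and 0, 0 and 3.15 RPM with DMSO at P6. At P0 it measured 2.63, 3.09, 0.175 and 0 RPM with compound E and 0, 0, 2.44 and 0 RPM with DMSO. Cd36 had no counts in 6 of the 14 libraries, and at P6 it was found in all 3 compound E libraries but in 1 DMSO library. Msr1, a scavenger receptor for modified lipoproteins, showed the same order at P6, with 1.154, 1.60 and 17.7 RPM against 0, 0 and 2.31 RPM.

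The other 3 genes of this role departed from Cd36 and Msr1 in different ways. Mrc1, the mannose receptor CD206, had its highest value of all 14 libraries in P0 DMSO replicate 3 at 4.32 RPM. Within P6 both libraries of batch 6 were still above the rest for Mrc1, at 3.46 and 2.40 RPM against at most 2.06 RPM. Cd163, the hemoglobin scavenger receptor of tissue macrophages, was the only member below the other P6 libraries in both libraries of batch 6, at 0.765 and 0.946 RPM against 1.13 to 2.68 RPM. Cd14, a co-receptor for bacterial lipopolysaccharide, measured 10.5 and 5.63 RPM in batch 6, with 6.92 RPM in DMSO replicate 1 between them.

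Itgam, the αM chain CD11b of macrophages and neutrophils (ENSMUSG00000030786.18, chromosome 7 from 128062640 to 128118491, plus strand), measured 0.398, 0.279 and 22.9 RPM with compound E and 2.84, 0 and 6.87 RPM with DMSO at P6. At P0 it measured 2.41, 0, 2.36 and 0 RPM with compound E and 0.908, 0, 0.699 and 0.756 RPM with DMSO. Its partner chain Itgb2 measured 0, 0.383 and 16.3 RPM with compound E and 1.00, 0 and 4.47 RPM with DMSO at P6. In batch 4 both chains were lower with compound E, and in batches 5 and 6 both were higher.

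MHC class II presents peptides on an α and a β chain that assemble with the invariant chain Cd74, and its genes split from the other members. H2-Ab1, the Aβ chain (ENSMUSG00000073421.6, chromosome 17 from 34257689 to 34269419, plus strand), was at 46.2 RPKM on average over the 14 libraries, whereas the other 33 members ranged from 0.0269 RPKM for Ccr2 to 7.17 RPKM for Lyz2. H2-Aa, which encodes the partner α chain, was at 0.0291 RPKM, H2-Eb1 at 0.335 RPKM and Cd74 at 1.01 RPKM. H2-Ab1 measured 29.0, 102, 50.4 and 73.8 RPM with compound E and 145, 76.5, 161 and 153 RPM with DMSO at P0. At P6 it measured 123, 222 and 131 RPM with compound E and 121, 127 and 147 RPM with DMSO. It was thus present in every library and did not rise with batch 6, where it made up 17.8 and 39.8% of the sum of all 34 genes against 67.2 to 88.4% in the other P6 libraries.

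The other 3 class II genes were at 0 to 4.61 RPM in every library, and the highest value was that of Cd74 in P0 DMSO replicate 2. All 4 class II members were lower with compound E than with DMSO in batch 6. Ciita, the class II transactivator, was looked up after these values were seen and ranged from 0 to 0.675 RPM over the 14 libraries. Class II promoters are known for a conserved inverted CCAAT box, and GATTGG, chosen as its core after the values were seen, was found on either strand in 7 of 28 member windows and in 14.6% of all windows. H2-Ab1 had no RefSeq promoter window, so its upstream sequence was not searched. The upstream sequences of H2-Aa (chr17:34287824-34288073, minus strand) and of H2-Eb1 (chr17:34305721-34305866, plus strand, outside GENCODE exons) are shown as those of the class II chains that stayed low, with the matches in capitals, 49 bases before the start site in H2-Aa and 60 and 35 bases before it in H2-Eb1.
H2-Aa: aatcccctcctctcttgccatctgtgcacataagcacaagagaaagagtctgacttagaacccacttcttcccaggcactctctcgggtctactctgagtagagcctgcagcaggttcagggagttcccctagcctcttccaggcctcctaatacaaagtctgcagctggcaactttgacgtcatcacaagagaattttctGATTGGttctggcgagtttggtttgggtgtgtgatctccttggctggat
H2-Eb1: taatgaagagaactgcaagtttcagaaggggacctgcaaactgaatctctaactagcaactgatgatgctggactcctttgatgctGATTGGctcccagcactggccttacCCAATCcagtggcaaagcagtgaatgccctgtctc

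To ask whether the genes answered to Notch inhibition at P0, a contrast that did not serve to choose them, the 4 compound E and 4 DMSO libraries were compared with edgeR's quasi-likelihood test over all genes. Of the 18 members tested, 0 passed the thresholds of an adjusted p of at most 0.01 and a 2-fold change, against 195 of 15937 genes (1.22%). None passed with DESeq2 either. In the edgeR fit 1 of the 18 members, H2-Ab1, had an unadjusted p below 0.05, against 2135 of all 15937 genes. No member separated the P0 compound E from the P0 DMSO libraries without overlap, against 9.88% of the genes tested. H2-Ab1 averaged 134 ± 39.0 RPM in DMSO (SD, n = 4), and the compound E libraries averaged 63.9 ± 31.6 RPM (SD, n = 4). The edgeR fit put this difference at -1.09 on the log2 scale with a standard error of 0.37 (adjusted p = 0.199), and compound E was lower in 3 of 4 pairs.

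Fitted log2 fold changes of the 18 members at P0 ran from -1.98 for Mrc1 (standard error 1.10) to 1.01 for Itgam (standard error 1.31), and the median was -0.13 against 0.007 over all genes. The standard errors exceeded 0.5 for all but H2-Ab1 and Laptm5. The fitted log2 difference of Laptm5 was 0.14 with a standard error of 0.34. In the same fit 4 of 5 Notch target genes, Hes1, Heyl, Hey1 and Nrarp, passed the thresholds downward. With P0 DMSO replicate 3 left out, the fitted log2 difference of Csf1r was 4.64 (adjusted p = 0.0416 in edgeR), so 1 library decided its value.

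Pairs of libraries from the same batch and replicate number differed in direction at P0. In pair 1 the level was higher with compound E for 28 members and lower for 5, and in pair 2 it was higher for 29 and lower for 3. In pair 3 it was higher for 5 and lower for 28, and in pair 4 higher for 11 and lower for 18. Median log2 ratios over the 34 genes were 0.74, 0.88, -0.75 and -0.0035 in pairs 1 to 4, against 0.06, 0.03, 0.06 and 0.02 over all genes tested. Only Fcgr1 and Cd163, neither of which passed the filter for the fit, were higher with compound E in all 4 pairs, and no member was lower in all 4. Of all genes tested, 17.4% were higher and 11.7% lower in all 4. Most members were thus higher in pairs 1 and 2 and lower in pair 3, whereas pair 4, which shares batch 3 with it, was mixed.

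**Figure D3:**
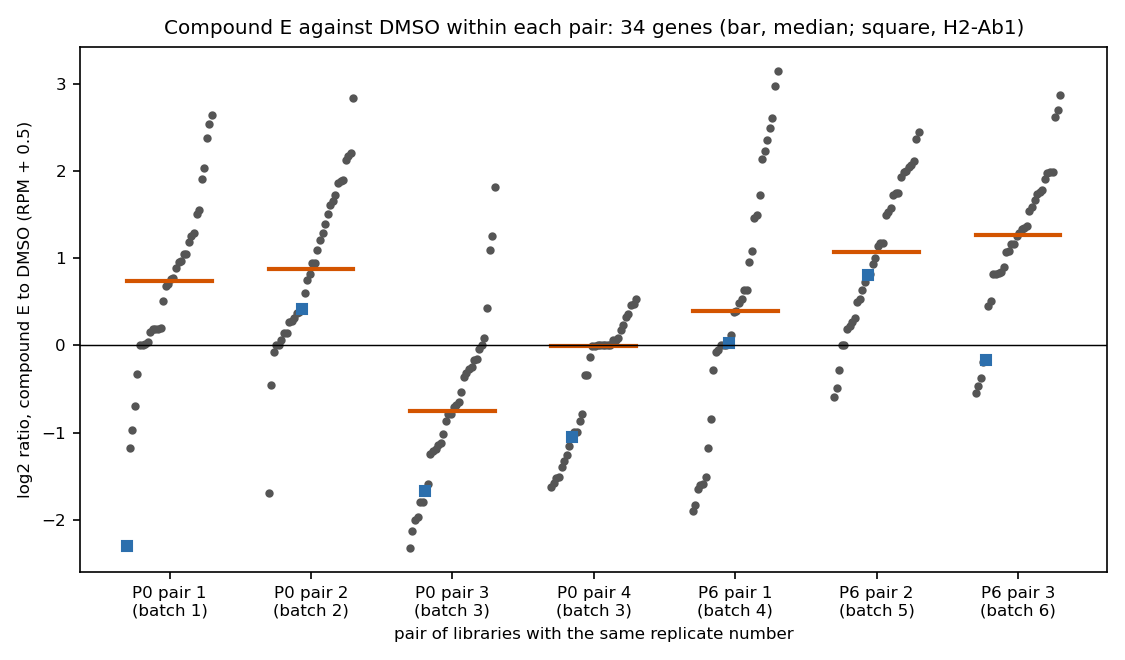
Log2 ratio of compound E to DMSO, from RPM + 0.5, for the 34 genes in each of 7 pairs that share a replicate number; points are genes in rank order, bars are medians and squares mark H2-Ab1. The medians lie above 0 in P0 pairs 1 and 2 and in all 3 P6 pairs, below 0 in P0 pair 3, and near 0 in P0 pair 4.

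At P6, in the contrast from which some members had been chosen, 19 of the 27 members fitted were at least 2-fold higher with compound E and 0 were at least 2-fold lower, whereas 3.02% of 15322 genes were at least 2-fold higher. The median log2 fold change was 1.27 over the 27 members and 0.0007 over all genes. These are descriptions, since the choice of members used them and the filter on low counts kept them. The count depended on which libraries of batch 6 were kept. Leaving out compound E replicate 3 alone kept the high DMSO library of the same batch. Without compound E replicate 3, 4 of 27 members were at least 2-fold higher and 10 at least 2-fold lower, with a median of -0.38. Over all genes of that fit 2.87% were at least 2-fold higher and 7.94% at least 2-fold lower. Without both libraries of batch 6, 11 of 26 were at least 2-fold higher and 3 at least 2-fold lower, with a median of 0.70, against 5.34% and 5.24% of all genes. No gene of the whole table passed the thresholds at P6 in the edgeR fit, where 289 had an unadjusted p below 0.05, and 13 passed with DESeq2.

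Single members moved in both directions when batch 6 was left out. Of 26 members in both fits, 19 were higher with compound E in both and 6 changed sign. Mpeg1, Cybb, Trem2, Msr1 and Cd36 had 0 counts in both remaining DMSO libraries, so that their compound E means were at least 7.32-fold (Trem2) to at least 17.3-fold (Cybb) higher than 3 counts per library, from means of 0.853 to 2.02 RPM. C1qa and C1qc had 0 counts in DMSO replicate 1 and only 3 and 7 counts in DMSO replicate 2, so no fold is given for them without batch 6. Itgam and Itgb2 went from 1.27 and 1.60 with batch 6 to -2.02 and -1.27 without it.

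**Figure D4:**
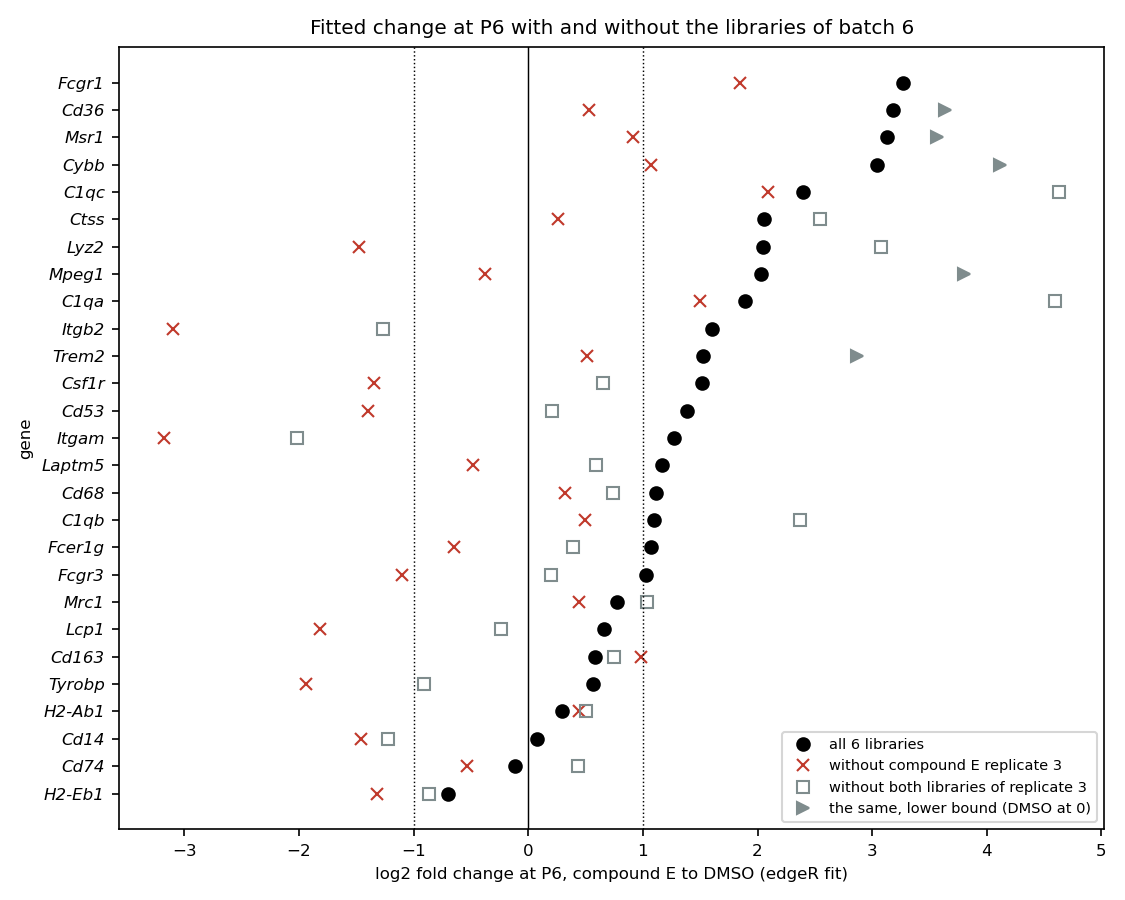
Log2 fold change of compound E to DMSO at P6 in the edgeR fit for the 27 members that passed the filter on low counts, with all 6 libraries (filled circles), without compound E replicate 3 (crosses) and without both libraries of replicate 3 (squares, or arrowheads at the lower bound where both remaining DMSO libraries had 0 counts). Dotted lines mark a 2-fold change; 19 circles lie at or beyond it on the right, and 4 crosses do. The squares of C1qa and C1qc rest on 3 and 7 DMSO counts.

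Within pairs at P6, 20 members were higher and 11 lower with compound E in batch 4, 29 higher and 3 lower in batch 5, and 29 higher and 5 lower in batch 6. The 33-gene sum was 1.17-fold, 3.24-fold and 2.73-fold as high with compound E in batches 4, 5 and 6. Higher in all 3 pairs were 13 members, namely Spi1, Laptm5, Lyz2, Cd68, Mpeg1, Ctss, Cybb, Trem2, C1qa, C1qb, C1qc, Msr1 and Cd36, and H2-Eb1 was lower in all 3. Among genes tested, 12 of the 27 members and 15.8% of all were higher in all 3 pairs, and 1 of the 27 and 17.1% of all were lower in all 3, in the contrast that the choice had used. These 13 include 5 of the 6 cytoplasmic and lysosomal genes and all 3 C1q chains. In batch 6, where counts were highest, the fold of compound E to DMSO ranged from 8.31 for Cd36 to 0.445 for H2-Aa. It was 2.64 to 7.02 for the cytoplasmic and lysosomal genes, 1.78 to 3.02 for the lineage genes and 1.46 to 2.77 for the C1q chains. Each pair is 1 library against 1 library, so these folds have no replicate check.

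Genes of other cell types were read in the same libraries, and their part in the result was not tested. A list of 30 further myeloid genes (Ptpn6 the highest) summed to 228 and 120 RPM in compound E and DMSO of batch 6 and to 41.8 to 59.9 RPM in the other P6 libraries. Both libraries of batch 6 lay above the other 4 for 24 of these 30 genes, and compound E lay above DMSO in batch 6 for 28 of 30. In batch 4 compound E was higher for 12 and lower for 12 of the 30, with 6 at 0 in both libraries, and in batch 5 it was higher for 15 and lower for 6, with 9 at 0 in both. The sums were 1.07-fold and 0.826-fold those of DMSO in these batches. Most of the sum in batch 5 was that of Ptpn6, at 22.9 and 31.0 RPM in compound E and DMSO, with Lair1 at 1.71 and 7.71 RPM. Without these 2 genes, left out after their values were seen, the sums were 0.913-fold in batch 4, 1.45-fold in batch 5 and 2.19-fold in batch 6.

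Neutrophil genes were high in batch 6. The 12 genes summed to 250.2 and 167 RPM in compound E and DMSO, against 3.17 to 8.05 RPM in the other P6 libraries and 0.155 to 14.97 RPM at P0. S100a8, a calcium-binding protein of neutrophils and monocytes and the highest of the list, measured 81.4 and 57.8 RPM in batch 6. Of the 12 genes 9 were above the rest in both libraries, among them Ly6g at only 0.109 and 0.0728 RPM. Mpo and Elane had 0 counts at P6. Camp measured 2.33 and 4.32 RPM in batch 6 against 1.99 to 3.13 RPM in the other P6 libraries. The 5 monocyte genes summed to 21.9 and 15.5 RPM against 0.0720 to 2.78 RPM. Neutrophils also carry Ptprc, Lcp1, Fcer1g, Itgam and Itgb2 among the members. Compound E was 1.49-fold as high as DMSO in batch 6 for the neutrophil sum, 1.41-fold for the monocyte sum and 2.73-fold for the 33 genes.

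The lymphocyte sum did not follow. The 15 T, B and NK cell genes found (Lck the highest) summed to 5.79 and 5.46 RPM in batch 6 and 5.37 to 8.75 RPM in the other P6 libraries. Most of the sum in batch 6 was that of Lck, at 3.64 and 4.34 RPM in compound E and DMSO. Of the 15 genes 4 were above the rest of P6 in both libraries, at no more than 0.328 RPM. Mast cell genes other than Kit and Hdc had 0 counts in all P6 libraries. Osteoclast genes summed to 62.7 and 40.9 RPM against 3.28 to 4.67 RPM, with Mmp9, which neutrophils also express, at 50.7 and 30.7 RPM and Dcstamp and Atp6v0d2 at 0. Of the 2 osteoclast genes tested at P0, Ctsk passed the thresholds downward, at a fitted log2 difference of -2.74 (adjusted p = 0.00601 in edgeR). The 10 connective tissue macrophage genes summed to 16.1 and 6.94 RPM against 0.278 to 8.60 RPM, with F13a1 the highest and Vsig4 and Mgl2 at 0.

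Batch 6 also differed for cells that are not leukocytes. Endothelial genes summed to 50.9 and 48.2 RPM in compound E and DMSO of batch 6 against 2.63 to 14.8 RPM in the other P6 libraries, and 7 of 10 were above the rest in both. Mesenchymal genes summed to 3427 and 4129 RPM against 929.6 to 2482 RPM, with all 8 above the rest. Hair cell genes summed to 1331 and 1163 RPM against 437 to 665 RPM, with 8 of 9 above the rest. The SC sum went the other way, at 1663 and 2637 RPM against 2837 to 5942 RPM, with 3 of 9 genes below the rest in both. Within batch 6 the endothelial sum was 1.06-fold and the hair cell sum 1.14-fold as high with compound E as with DMSO. The mesenchymal sum was 0.830-fold and the SC sum 0.631-fold as high, against 2.73-fold for the 33 genes.

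**Figure D5:**
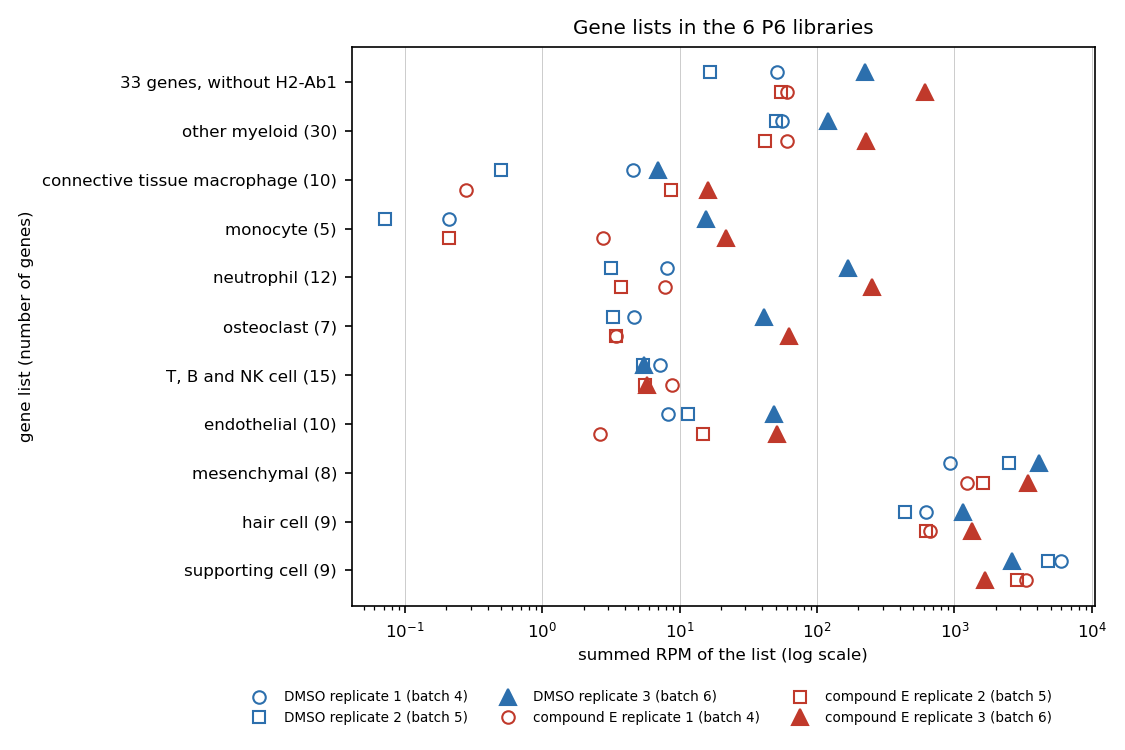
Summed RPM, on a log axis, of the 33 genes and of 10 lists of marker genes in the 6 P6 libraries, compound E in red and DMSO in blue, with filled triangles for batch 6. The triangles lie to the right of the other symbols for the 33 genes and for the other myeloid, monocyte, neutrophil, osteoclast, endothelial, mesenchymal and hair cell lists, and to the left for the supporting cell list.

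Signals that act on macrophages were described from 9 growth factor and chemoattractant genes (Mif the highest). None of the 7 tested passed the thresholds at P0, and their sum was 101.5 to 278 RPM at P0 and 299 to 412 RPM at P6. Of 15 cytokine and NF-κB response genes, 0 of 8 tested passed at P0, and the sum was 181 and 151 RPM in batch 6 against 95.0 to 167 RPM in the other P6 libraries. Interferon response genes summed to 255 and 297 RPM in compound E and DMSO of batch 4 but to 50.0 to 119 RPM in batches 5 and 6, so batch 4 stood apart for that list. Of the 9 other complement genes (C2 the highest) 7 were above the rest in both libraries of batch 6, and 0 of 7 tested passed at P0. Over 10 other antigen presentation genes (H2-K1 the highest) 0 of 7 tested passed at P0.

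The remaining lists were described by the fold of compound E to DMSO in batch 6. For microglial genes it was 0.915 in a sum made up mostly of Sall1 and Olfml3, and 1.56 without these 2 genes, also left out after their values were seen, from sums of 8.01 and 5.12 RPM over the other 7. It was 0.852 for neuronal, 1.05 for glial, 0.848 for melanocyte, 1.04 for lipid and lysosome and 1.13 for stress response genes. For erythroid genes it was 9.81, from sums of 6.67 and 0.679 RPM, and 0 of these 8 genes were above the rest of P6 in both libraries.

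Ages were compared in the DMSO libraries alone, as a description, because P6 DMSO libraries enter the contrast that the choice used and no batch held both ages. Cd163 was the only member higher in all 3 P6 than in all 4 P0 DMSO libraries, at 0.946 to 2.05 RPM against 0.0657 to 0.341 RPM, and 0 members were lower in all 3. Of the 15106 genes that averaged 0.5 RPM or more, 13.6% were higher and 19.4% lower at P6 by the same measure. Only 25 of the 34 members reached that mean, whereas the members were counted over all 34. Without P6 DMSO replicate 2, where 14 members were at 0, the count of higher members was 7. The share of all genes was not counted for that set of libraries, so the 7 have no background beside them. Age and batch cannot be told apart here.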

How the data were processed

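RNA from sorted EGFP+ cells was amplified with a SMART-Seq v4 kit without molecular identifiers, and the authors deposited raw counts per gene for each library, in 1 table per age. The submitters' processing notes name Trim Galore 0.6.0, cutadapt 1.15 and STAR 2.7.0f with GRCm38; the annotation release and the strand setting are not given in the sources used here. Nothing says that libraries of a group came from separate litters, so p-values measure the spread between these libraries.

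Counts were divided by each library's total on genes to give RPM. The libraries of each age went into a separate fit, in which treatment was the sole term, in edgeR 4.0.16 (R 4.3.3; TMM, filterByExpr with a minimum count of 10, quasi-likelihood test, Benjamini-Hochberg adjustment over all genes tested). Genes were called at an adjusted p of at most 0.01 and a 2-fold change. Ratios within pairs used a pseudocount of 0.5 RPM. DESeq2 1.42.0, its size factors, no filter, a replicate or batch block, another threshold and leaving out libraries were alternatives, and sums without H2-Ab1 were added after the data were seen. Scripts were tested on simulated data. Replicate numbers follow the batches in the labels, and deviations of same-numbered libraries correlated at 0.500, 0.245, 0.360 and 0.162 at P0 and at 0.264, 0.326 and 0.620 at P6, so the numbers pair the libraries.

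The 34 genes and the 24 other lists (246 genes) were chosen with earlier results of these data known. Values in every library are given for the member of highest mean RPM in each role, and other members given in full were chosen after their values were seen. Intervals and floors of 3 counts cover counting error only. Coordinates are from GENCODE and sequences from RefSeq, both on GRCm38.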

Additional observations from a re-analysis of the deposited data

Results flagged for a closer look

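Within the P0 groups of 4 libraries, 62 sets of values were examined for 1 library far from the other 3, and 11 were found. A rate of 1 in 20 would give 3.1, but only for independent sets, and these genes can rise together in a library. A set needed at least 10 counts in a library, so it could enter through the high library alone. The 11 are therefore a description and are not weighed against 3.1. Of these 11, 9 were high values of P0 DMSO replicate 3. They were Csf1r at 2.29 RPM, Mpeg1 at 1.46 RPM, Ctss at 2.00 RPM, Cybb at 3.02 RPM, Fcgr2b at 1.75 RPM, C1qc at 1.27 RPM, Msr1 at 0.413 RPM, Cd36 at 2.44 RPM and Mrc1 at 4.32 RPM. In the other 3 P0 DMSO libraries the same genes were at most at 0.189 RPM, except Mrc1 at up to 0.530 RPM. Of 10 connective tissue macrophage genes, F13a1 and Pf4 were above the other 3 P0 DMSO libraries in that library, at 9.65 and 2.19 RPM, Folr2 and Lyve1 were below them, at 0.0635 and 0.254 RPM, and 4 had 0 counts. The part of such cells in the 9 values was not tested. Spi1 was high in P0 compound E replicate 1 at 0.675 RPM, and Cd74 was high in P0 DMSO replicate 2 at 4.61 RPM.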

How the results depend on the processing

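No member was called at P0 under any of the 18 alternatives. The count of all genes called at P0, 195, became 617 at an adjusted p of at most 0.05 with no fold threshold, 443 with DESeq2, 350 with the replicate block and 334 with the batch block, and 1 to 225 with libraries left out. It was lowest, at 1, without replicate 4. With the replicate block, 16 members were at least 2-fold higher at P6. The 19 members at least 2-fold higher at P6 ranged from 4 to 27 with libraries left out, and compound E replicate 3 gave the lowest count. DESeq2 called 13 genes at P6, where edgeR called 0. The log2 ratio of the summed RPM of all 34 genes was 0.81 at P6, 1.53 without the 3 highest members, 0.0079 without compound E replicate 3 and 1.34 without DMSO replicate 3. Without H2-Ab1 it was 1.31, and 0.75 when batch 6 was left out as well. At P0 it was -0.68 and ranged from -0.89 to -0.53 with libraries left out, but was 0.13 without H2-Ab1. Members higher at P6 in DMSO numbered 1 to 7 and lower 0 to 1 with libraries left out, where the share of all genes was not counted. H2-Ab1 at P0 had log2 fold changes from -1.61 to -0.82 and adjusted p from 0.0497 to 0.669. The causes of these shifts were not tested, other than fewer libraries or genes in the fit.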
